A study of Mus musculus with 9 samples.

Results

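The genes described here encode ribosomal proteins and translation factors, 111 autosomal protein-coding genes of the 8742 genes listed in the 3 deposited tables. They were picked by name: symbols that begin with Rpl, Rps, Rplp, Eif or Eef, plus Rpsa, Rack1, Pabpc1 and Pabpc4, without the S6 kinases, Rps27l and the eIF4E-binding proteins. A gene annotation of the same mouse build (GENCODE M21) holds 153 genes that meet the rule, and the other 42 are listed in no table and were not analysed here. By role, the 111 members are 37 proteins of the large subunit, 31 of the small subunit, 32 initiation factors, 5 elongation factors, 2 poly(A)-binding proteins and 4 kinases or methyltransferases that modify translation factors.

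The samples are organoids of mouse esophageal epithelium, self-organising cell cultures, collected on day 7 and sequenced as bulk RNA. The genotype label is Trp53;Cdkn2a;Notch1 KO for PCN, Trp53;Notch1 KO for PN and wild type for WT, with 3 libraries in each group and no treatment in any. PCN and PN thus share the Trp53 and Notch1 knockouts. Whether the libraries within 1 group are separate cultures, animals or clones is not labelled, so a p-value here covers the spread among these libraries and no more.

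A ribosome consists of a small subunit, which reads the mRNA, and a large subunit, which joins the amino acids, and each is built from ribosomal RNA and many proteins. Initiation factors (eIFs) bring the small subunit, the first tRNA and the mRNA together, and elongation factors (eEFs) then deliver tRNAs and move the ribosome along. In mammals the mRNAs of ribosomal proteins and of several factors begin with a run of pyrimidines, the 5' TOP motif, through which the mTOR kinase and LARP1 control their translation.

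Of the targeted genes, Trp53 was at no more than 0.979 FPKM in PCN and 0.801 FPKM in PN libraries, against at least 29.2 FPKM in WT libraries. FPKM is the number of fragments per length of gene, scaled to library size. Notch1 had 4.67 to 5.40 FPKM in PCN, 9.87 to 10.8 in PN and 14.97 to 19.5 in WT libraries. Cdkn2a, by contrast with its label, had 53.2 to 59.9 FPKM in PCN, 18.3 to 19.4 in PN and 5.54 to 8.83 in WT libraries, so PCN below means the libraries labelled PCN. Where Cdkn2a was edited is not labelled, and an edit need not lower its RNA. Counts in listed genes ran between 11763682 and 13653905 per library. Squamous epithelial markers were present in all 9 libraries, and the sum of 8 of them was 4948 to 5114 FPKM in PCN, 3892 to 4071 in PN and 15660 to 16910 in WT libraries. The sum is weighted to the most abundant of them: of all 10 listed, 3 rose and 5 fell in PCN against WT, and 2 rose and 5 fell in PN against WT. The sum of 10 genes of S and G2/M phase was 562 to 581 FPKM in PCN, 550 to 562 in PN and 306.5 to 319 in WT libraries. None of 6 fibroblast or 5 muscle and glia markers is listed in a table. Of 6 leukocyte markers only Cd68 is listed, at 11.96 to 13.5 FPKM in PCN, 18.9 to 21.5 in PN and 74.8 to 95.1 in WT libraries. Of 4 endothelial markers only Esam is listed, at no more than 4.08 FPKM. The part of these differences in the results below was not tested.

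On the authors' library scaling, most ribosomal protein mRNAs were lower in both knockout groups than in WT, and lower in PCN than in PN. The initiation factors split into some that rose and some that fell. Against the summed FPKM of the listed genes, given below, the members' share fell less. In PCN against WT, 59 of the 68 ribosomal protein genes fell and 1 rose, and 3 were in the table without passing. In PN against WT, 53 fell and 1 rose, and in PCN against PN 37 fell and 2 rose. The calls in PCN against PN depend on the fit: in 1 fit over all 9 libraries, which takes in the wider spread of WT and holds 34 of the 37 and both of the 2, 14 fell and 1 rose. The test was edgeR's quasi-likelihood test at a Benjamini-Hochberg adjusted p under 0.05. A deposited table holds only genes that the authors called in that comparison, which were 38.6% of genes adjusted over in PCN against WT, 38.1% in PN against WT and 24.5% in PCN against PN, so whether a member passed is partly set by that selection. The tables hold genes called in either direction. Among 7828 listed autosomal protein-coding genes 37.7% fell and 36.0% rose in PCN against WT, 37.1% fell and 36.1% rose in PN against WT, and 20.1% fell and 21.8% rose in PCN against PN. Over the 58 ribosomal protein genes with counts in all 9 libraries the median log2 ratio was -0.72 in PCN against WT, -0.54 in PN against WT and -0.17 in PCN against PN, and over 6087 such protein-coding genes it was -0.05, -0.09 and 0.01. Without overlap between libraries, 54 of these 58 genes lay below WT in PCN (46.6% of the 6087 genes), 52 lay below WT in PN (46.7%) and 34 lay below PN in PCN (27.9%). Of 36 factors and modifiers, 15 lay above WT in PCN (44.1% of the 6087 genes), 15 above WT in PN (42.8%) and 5 above PN in PCN (30.4%). On the other side, 20 lay below WT in PCN (46.6% of the 6087 genes), 18 below WT in PN (46.7%) and 17 below PN in PCN (27.9%). The comparisons share groups and are not independent of each other. In bulk RNA, fewer cells of a type and less RNA per cell cannot be told apart.

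**Figure D1:**
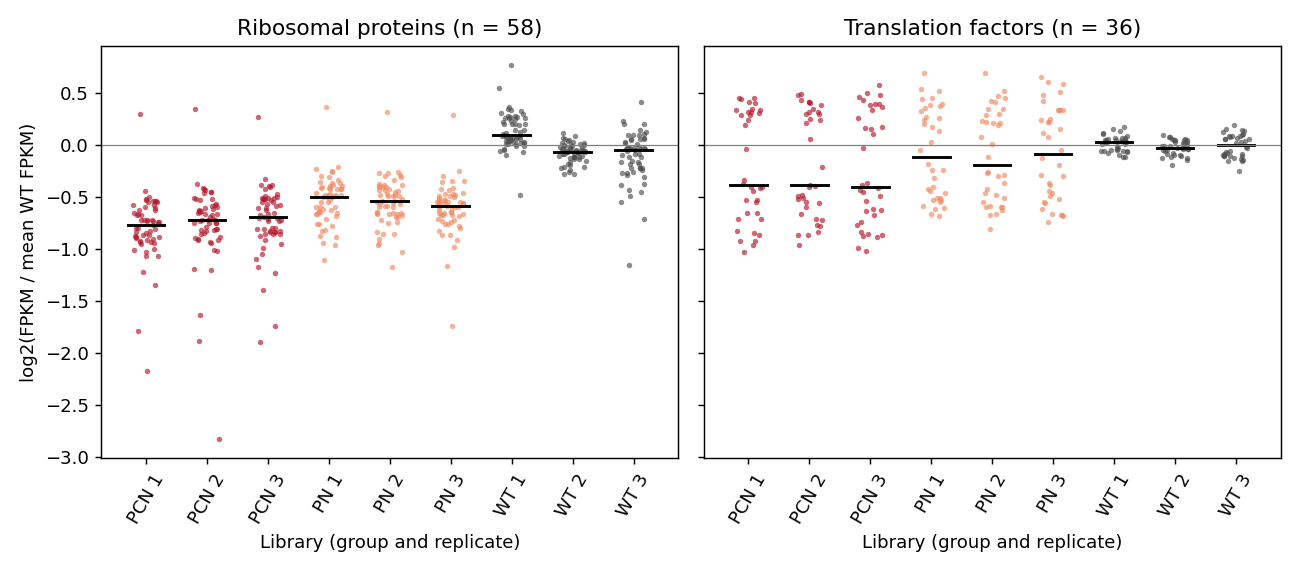
Each point is 1 gene in 1 library, as log2 of its FPKM over the mean FPKM of the 3 WT libraries, for 58 ribosomal proteins (left) and 36 translation factors and their modifiers (right), with black bars at the median of each library. The ribosomal proteins of all PCN and PN libraries lie below 0 apart from 1 gene, Rpl7l1, whereas the factors form a group above 0 and a group below 0.

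The members took up a large part of each library. The 94 members with counts in all 9 libraries held 6.83%, 7.23% and 7.04% of the library size behind the authors' FPKM in PCN, 8.13%, 7.90% and 7.91% in PN, and 12.1%, 11.3% and 11.0% in WT. The groups did not overlap, and the mean share in PCN was 0.613 of that in WT, in PN 0.696 of that in WT, and in PCN 0.881 of that in PN. Large-subunit genes held 2.35% ± 0.058 in PCN, 2.68% ± 0.064 in PN and 3.89% ± 0.23 in WT (SD, n = 3 each). Small-subunit genes held 2.24% ± 0.070 in PCN, 2.50% ± 0.044 in PN and 3.64% ± 0.26 in WT. The 4 elongation factors held 1.63% ± 0.081 in PCN, 1.93% ± 0.043 in PN and 2.88% ± 0.15 in WT, most of it Eef1a1. The 27 initiation factors held less and differed less, at 0.557% ± 0.0079 in PCN, 0.601% ± 0.0092 in PN and 0.677% ± 0.023 in WT. The scale matters for these shares. Taken against the summed FPKM of the listed genes, the log2 ratio of the members' share was -0.18 in place of -0.71 in PCN against WT. In PN against WT it was -0.07 in place of -0.52. All genes with counts in all 9 libraries together filled 58.8%, 60% and 58.7% of the library size in PCN. They filled 60.7%, 60% and 60.8% in PN, and 77.5%, 77% and 75.6% in WT.

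In the large subunit, 31 of 37 genes fell and 1 rose in PCN against WT, 30 fell and 1 rose in PN against WT, and 24 fell and 1 rose in PCN against PN. Rpl3, a core protein near the site where amino acids are joined, had 278, 283 and 276 FPKM in PCN, 377, 357 and 355 FPKM in PN, and 644, 618 and 674 FPKM in WT libraries. The 3 groups did not overlap, with PCN lowest. Its log2 fold change was -1.21 ± 0.07 (SE) in PCN against WT, -0.82 ± 0.06 in PN against WT and -0.38 ± 0.04 in PCN against PN (edgeR's quasi-likelihood test, adjusted p = 7.8e-09, 4.5e-07 and 1.4e-08). Rpl5, which binds 5S rRNA and, outside the ribosome, the p53 inhibitor MDM2, had 259, 270 and 253 FPKM in PCN, 321, 304 and 321 in PN, and 527, 516 and 579 in WT libraries. It fell by 1.05 ± 0.07 on the log2 scale in PCN against WT and by 0.77 ± 0.07 in PN against WT. Rplp0, the base of the ribosomal stalk and often used as a reference gene, was the most abundant ribosomal protein with a value in every library, at 1873, 2006 and 1898 FPKM in PCN, 2334, 2189 and 2192 in PN, and 2841, 2595 and 2634 in WT. No library of 1 group overlapped another group, and Rplp0 fell by 0.48 ± 0.07 on the log2 scale in PCN against WT (adjusted p = 5.4e-05), by 0.25 ± 0.06 in PN against WT (adjusted p = 0.0059) and by 0.22 ± 0.04 in PCN against PN (adjusted p = 0.00014).

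The widest fold changes against WT in the large subunit were those of Rpl22l1, a paralog of Rpl22 that can take its place in the ribosome. It had 5.48, 3.46 and 6.64 FPKM in PCN, 11.5, 10.9 and 7.36 in PN, and 35.9, 22.8 and 15.1 in WT libraries, with at least 120 counts in each. The groups did not overlap, but the WT libraries spread 2.39-fold. Its log2 fold change was -2.23 ± 0.37 in PCN against WT and -1.30 ± 0.31 in PN against WT (adjusted p = 0.0023 and 0.011), and -0.92 ± 0.28 in PCN against PN, which did not pass (adjusted p = 0.069; 0.0032 to 0.036 without PCN library 2, PCN library 3 or PN library 3). Rpl22 itself had 107, 108 and 102 FPKM in PCN, 117, 117 and 123 in PN, and 186, 160 and 187 in WT libraries. It fell by 0.74 ± 0.08 in PCN against WT and by 0.56 ± 0.08 in PN against WT. Rpl17 has values in PCN and WT only, 119, 121 and 117 FPKM in PCN against 619, 548 and 322 in WT libraries, a log2 fold change of -2.06 ± 0.22 (edgeR adjusted p = 0.00013).

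The 1 gene that rose against WT among those counted as ribosomal proteins was Rpl7l1, a relative of Rpl7 that is counted there by its name alone. It had 50.6, 52.5 and 49.6 FPKM in PCN, 53.3, 51.5 and 50.6 in PN, and 43.1, 40.0 and 40.6 in WT libraries. All 6 knockout libraries lay above all 3 WT libraries, with log2 fold changes of 0.31 ± 0.07 in PCN against WT and 0.34 ± 0.07 in PN against WT (adjusted p = 0.0028 and 0.00096). Its relative Rpl7 went the other way, with 402, 435 and 413 FPKM in PCN, 548, 523 and 545 in PN, and 774, 756 and 743 in WT libraries. Rpl7 fell by 0.86 ± 0.07 on the log2 scale in PCN against WT, by 0.48 ± 0.06 in PN against WT and by 0.37 ± 0.04 in PCN against PN. FPKM values here use the gene length listed by the authors, so levels of different genes compare only roughly.

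In the small subunit, 28 of 31 genes fell in PCN against WT, 23 in PN against WT and 13 in PCN against PN, and 1 rose, in PCN against PN. Rps6, the substrate of the S6 kinases, had 794, 853 and 818 FPKM in PCN, 1017, 981 and 1009 in PN, and 1613, 1491 and 1648 in WT libraries. The groups were well apart, and Rps6 fell by 0.94 ± 0.07 on the log2 scale in PCN against WT, by 0.65 ± 0.06 in PN against WT and by 0.29 ± 0.04 in PCN against PN (adjusted p = 1.3e-07, 3.7e-06 and 2e-06). Rps14, which lines the mRNA channel, had 593, 658 and 576 FPKM in PCN, 703, 715 and 721 in PN, and 1279, 1268 and 1023 in WT libraries. It fell by 0.96 ± 0.09 in PCN against WT and by 0.73 ± 0.08 in PN against WT. Rack1, a scaffold protein bound near the mRNA exit, had 287, 323 and 306 FPKM in PCN, 353, 340 and 334 in PN, and 541, 534 and 520 in WT libraries. It fell by 0.80 ± 0.07 in PCN against WT and by 0.62 ± 0.06 in PN against WT. Rps2 changed less, with 987, 1058 and 1105 FPKM in PCN, 1226, 1197 and 1210 in PN, and 1497, 1412 and 1411 in WT libraries. It fell by 0.45 ± 0.07 in PCN against WT and by 0.24 ± 0.06 in PN against WT. Rps27a, made as a fusion of ubiquitin with a ribosomal protein, has values in PCN and WT only and fell to 79.4, 67.5 and 115 FPKM in PCN, against 155, 167 and 190 FPKM in WT libraries (log2 fold change -0.97 ± 0.18, adjusted p = 0.0029; -0.88 with adjusted p = 0.12 without WT library 3).

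Of the 68 ribosomal protein genes 3 passed in no comparison, Rpl36, Rplp1 and Rps21. Rps21 had 487, 468 and 564 FPKM in PCN, 540, 571 and 511 in PN, and 909, 583 and 622 in WT libraries. Its edgeR adjusted p was 0.058 in PCN against WT and 0.097 in PN against WT. Its WT library 1 stood apart from the other WT libraries, which sat just above the knockout libraries. Ribosomal protein genes also varied more among the WT libraries than among the others. The highest of 3 libraries was a median 1.1-fold above the lowest in PCN, 1.07-fold in PN and 1.25-fold in WT, and the ratio was over 1.5 for 12 of 58 genes in WT and for 1 in PCN and 1 in PN. Over other protein-coding genes the median was 1.12 in PCN, 1.11 in PN and 1.20 in WT. WT library 1 was the highest WT library for 43 of the 58 genes. The log2 ratio of WT library 1 over WT library 3 had a median of 0.36 for the genes with shorter coding sequences and 0.09 for those with longer ones, split at a median coding length of 487 bases, with Spearman's rho of -0.35 over 58 genes of the same 2 libraries. The log2 ratio of PCN over WT had medians of -0.70 for shorter and -0.73 for longer coding sequences, and that of PN over WT had -0.53 and -0.55.

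**Figure D2:**
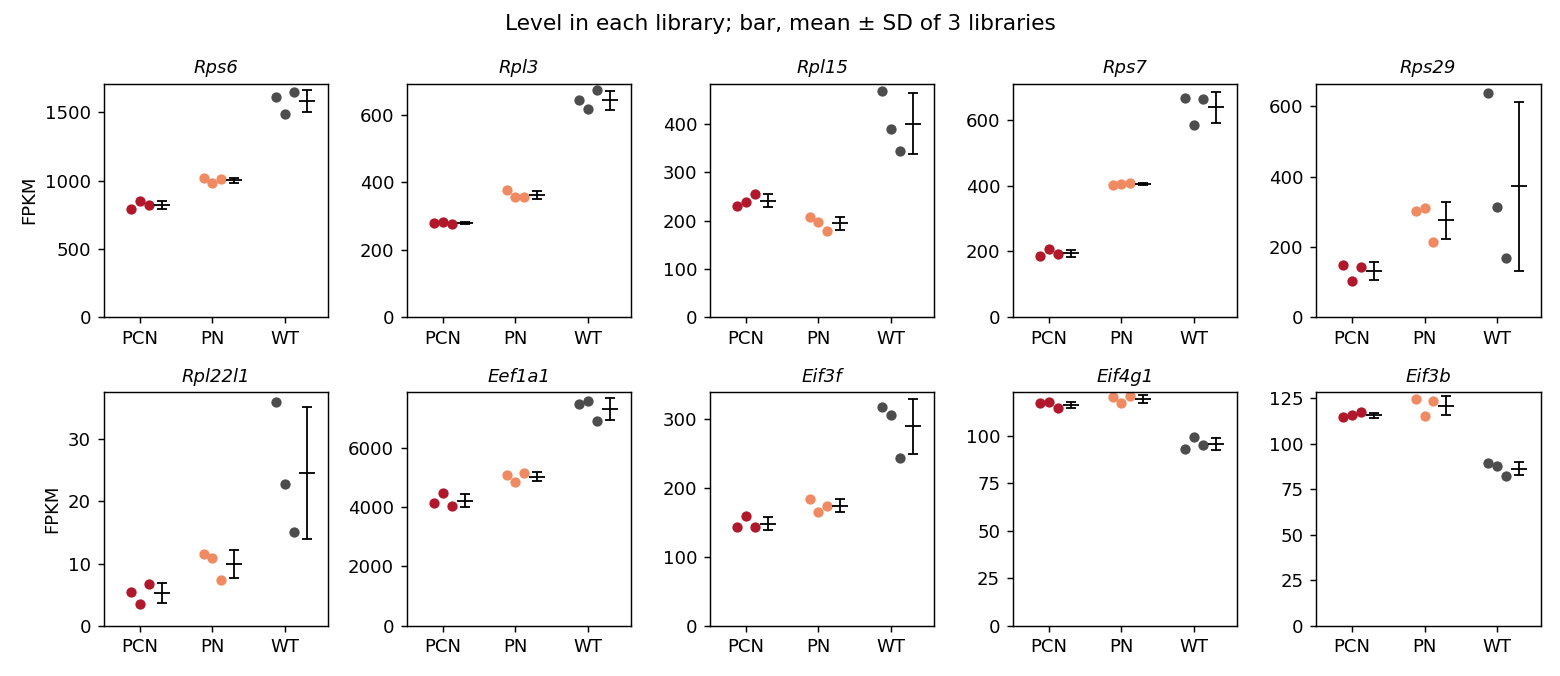
FPKM of 10 members in each PCN, PN and WT library, with the mean and SD of 3 libraries beside the points, on axes that start at 0. Rps6, Rpl3, Rps7, Eef1a1 and Eif3f have PCN below PN below WT, Rpl15 has PN lowest, Rps29 and Rpl22l1 spread widely in WT, and Eif4g1 and Eif3b lie above WT in both knockout groups.

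The promoter windows of 11 members are shown to set the start of genes that fell beside that of genes that rose. They are RefSeq sequences of build GRCm38.p6, 25 bases before and 25 bases from the annotated start, Rps6 at chr4:86857343-86857392 (minus strand), Rpl15 at chr14:18270962-18271011 (minus strand), Rpl22l1 at chr3:28805483-28805532 (plus strand), Rps18 at chr17:33955641-33955690 (minus strand), Rpl5 at chr5:107900503-107900552 (plus strand), Rps7 at chr12:28635929-28635978 (minus strand), Eif3f at chr7:108934390-108934439 (plus strand), Eif4b at chr15:102073748-102073797 (plus strand), Eif3b at chr5:140419280-140419329 (plus strand), Eif4a3 at chr11:119300019-119300068 (minus strand) and Eif5b at chr1:37997985-37998034 (plus strand). Capitals mark a run of at least 5 pyrimidines, a C followed by at least 4 letters that are each C or T, that begins within 5 bases of the start on the strand of the gene.
Rps6: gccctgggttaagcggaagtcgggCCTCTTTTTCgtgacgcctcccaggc
Rpl15: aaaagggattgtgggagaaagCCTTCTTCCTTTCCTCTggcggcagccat
Rpl22l1: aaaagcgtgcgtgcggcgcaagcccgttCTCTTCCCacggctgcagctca
Rps18: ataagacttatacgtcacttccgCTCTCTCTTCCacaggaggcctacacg
Rpl5: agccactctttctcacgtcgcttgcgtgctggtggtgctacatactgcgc
Rps7: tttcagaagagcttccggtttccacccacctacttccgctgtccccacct
Eif3f: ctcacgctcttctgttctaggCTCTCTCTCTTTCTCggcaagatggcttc
Eif4b: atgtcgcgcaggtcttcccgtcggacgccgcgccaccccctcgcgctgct
Eif3b: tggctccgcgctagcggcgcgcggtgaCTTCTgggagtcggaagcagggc
Eif4a3: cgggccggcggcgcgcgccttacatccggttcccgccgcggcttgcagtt
Eif5b: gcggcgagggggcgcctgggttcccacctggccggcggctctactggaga
Rps6, Rpl15, Rpl22l1 and Rps18, ribosomal protein genes that fell against WT, and Eif3f, an initiation factor that fell, hold such a run, and so does Eif3b, which rose. Rpl5, Rps7 and Eif4b, which fell as well, and Eif4a3 and Eif5b, which rose, hold none that begins within 5 bases of that start. Runs elsewhere in a window, such as ctctttctc in Rpl5, were not counted. Of 111 members 83 have a RefSeq window. The run stood in 25 of 48 ribosomal protein genes (52.1%), in 2 of 14 factors that fell against WT, in 7 of 15 that rose, and in 21.2% of all 27025 genes with a window. With at least 7 pyrimidines it stood in 20 of 48 ribosomal protein genes, 2 of 14 factors that fell, 1 of 15 that rose, and 7.64% of all genes. The lengths were chosen with the counts known, a match is a description of letters and not a site, and annotated starts can lie off the used start. The RefSeq start lay 26 bases downstream of the gene start listed by the authors for Rpl5, 336 for Rps18 and 405 for Rpl15. A run at another start can thus be missed.

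Initiation factors moved in both directions, against WT in shares near those of all genes. Of 32, 12 rose and 15 fell in PCN against WT (37.5% and 46.9%, beside 36.0% and 37.7% of all listed protein-coding genes), and 13 rose and 10 fell in PN against WT (40.6% and 31.2%, beside 36.1% and 37.1%). In PCN against PN, 2 rose and 15 fell (6.25% and 46.9%, beside 21.8% and 20.1%), and of these 17 Eif3f, Eif3i, Eif3j1, Eif4b and Eif6 did not pass in the fit over all 9 libraries (adjusted p 0.059 to 0.11). Single complexes held genes of both directions, as did all listed genes. Of the 11 genes of eIF3, the large complex that binds the small subunit and receives the mRNA, 4 rose and 6 fell in PCN against WT (36.4% and 54.5%). In PN against WT 4 rose and 4 fell (36.4% each, near the shares of all genes), and 6 fell in PCN against PN (54.5%). A mix of directions against WT is thus not particular to eIF3.

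Among the eIF3 genes that fell, Eif3f had 143, 159 and 143 FPKM in PCN, 183, 165 and 174 in PN, and 318, 306 and 244 in WT libraries. It fell by 0.96 ± 0.10 on the log2 scale in PCN against WT, by 0.72 ± 0.09 in PN against WT and by 0.24 ± 0.05 in PCN against PN (edgeR adjusted p = 4.7e-06, 5e-05 and 0.00034). Eif3h, its partner in the complex, had 186, 201 and 191 FPKM in PCN, 210, 201 and 208 in PN, and 316, 316 and 277 in WT libraries. It fell by 0.65 ± 0.08 in PCN and by 0.54 ± 0.07 in PN against WT. Eif3e and Eif3m fell as well, by 0.73 ± 0.08 and 0.53 ± 0.08 in PCN against WT and by 0.43 ± 0.07 and 0.27 ± 0.07 in PN against WT. Among the eIF3 genes that rose, Eif3b, a scaffold subunit, had 115, 116 and 117 FPKM in PCN, 124.5, 115 and 123 in PN, and 89.3, 87.6 and 82.4 in WT libraries. All knockout libraries lay above all WT libraries, with log2 fold changes of 0.43 ± 0.07 in PCN against WT and 0.50 ± 0.07 in PN against WT (adjusted p = 0.00023 and 6.1e-05). Eif3a, the largest subunit and the other scaffold, had log2 fold changes of 0.26 ± 0.08 and 0.22 ± 0.07, Eif3g 0.38 ± 0.09 and 0.30 ± 0.09, and Eif3j1 0.36 ± 0.07 and 0.53 ± 0.07. Eif3a did not pass without either of 2 PCN libraries or without any 1 PN library. Eif3i and Eif3k fell in PCN against WT by 0.38 ± 0.08 and 0.30 ± 0.10, and Eif3k, which has no PN values, did not pass without any of 5 of the 6 libraries (adjusted p 0.055 to 0.11; 2.2e-06 without WT library 3) and fell by 0.19 without WT library 1. Eif3l has values in PCN and PN only and fell by 0.17 ± 0.05.

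**Figure D3:**
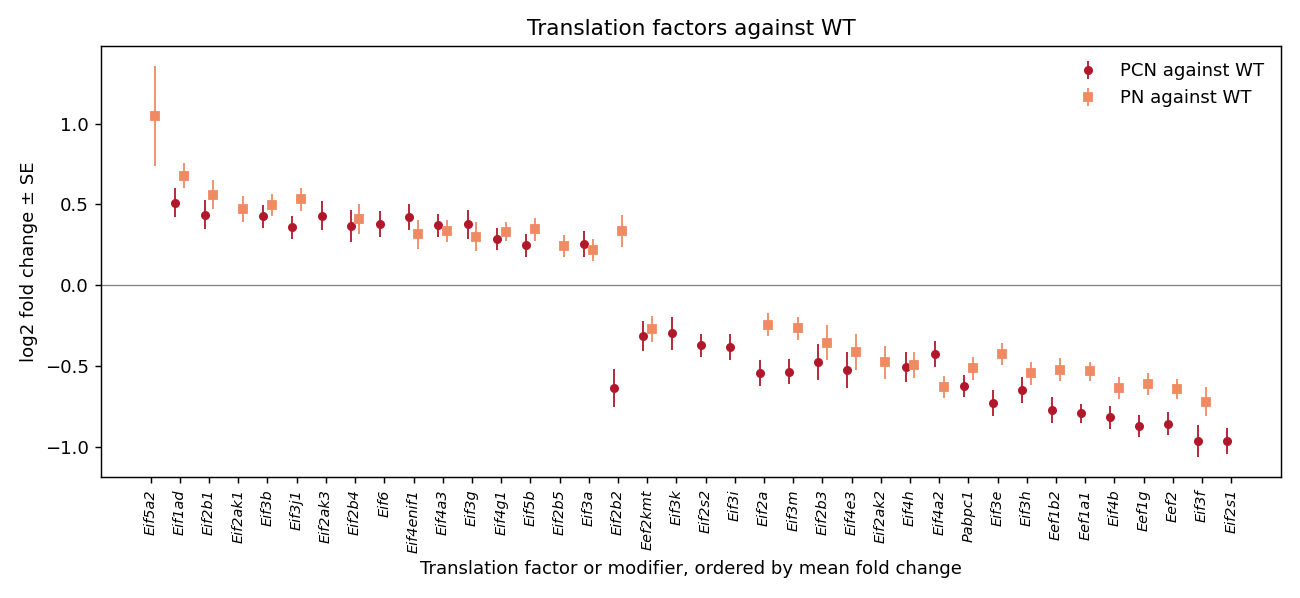
Log2 fold change with its SE of each translation factor or modifier listed in the PCN against WT table (circles) or the PN against WT table (squares), from edgeR. Factors from Eif5a2 to Eif3a lie above 0 wherever they are listed, those from Eef2kmt to Eif2s1 lie below 0, and Eif2b2 is above 0 in PN and below 0 in PCN.

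The genes named Eif4, mostly of the cap-binding group that recruits the mRNA by its cap and unwinds it, held both directions too. Among 9, 3 rose and 4 fell in PCN against WT and likewise in PN against WT. These 33.3% and 44.4% stand beside 36.0% and 37.7% of all listed protein-coding genes in PCN, and 36.1% and 37.1% in PN. Of the 3 that rose, Eif4a3 and Eif4enif1 are counted by name and have the other roles given below. Eif4g1, the scaffold that joins cap, helicase and eIF3, had 117, 118 and 114 FPKM in PCN, 120, 117 and 121 in PN, and 92.8, 99.2 and 94.9 in WT libraries. It rose in both, by 0.29 ± 0.07 in PCN and 0.33 ± 0.06 in PN (edgeR adjusted p = 0.004 and 0.00092). Eif4b, which stimulates the helicase, fell to 132, 138 and 129 FPKM in PCN and 155, 149 and 147 FPKM in PN, against 246, 240 and 219 FPKM in WT libraries. Its log2 fold change was -0.82 ± 0.07 in PCN against WT, -0.64 ± 0.07 in PN against WT and -0.18 ± 0.04 in PCN against PN. Eif4h, a related helper, fell by 0.51 ± 0.09 in PCN and by 0.49 ± 0.08 in PN. Of the helicases, Eif4a1 has values in PCN and PN only, 203, 205 and 205 FPKM in PCN against 238, 228 and 238 in PN, a fall by 0.20 ± 0.04. Its paralog Eif4a2 had 33.2, 33.8 and 31.6 FPKM in PCN, 27.7, 29.4 and 28.0 in PN, and 40.8, 43.5 and 48.4 in WT libraries. PN was lowest, and it rose by 0.21 ± 0.05 in PCN against PN (adjusted p = 0.0011). Eif4a3, which belongs to the exon junction complex, rose by 0.37 ± 0.07 in PCN against WT and by 0.34 ± 0.07 in PN against WT. Eif4enif1, a transporter of the cap-binding protein, rose by 0.42 ± 0.08 and 0.32 ± 0.09. Eif4e3, a minor cap-binding protein, fell by 0.53 ± 0.11 and 0.41 ± 0.11, and Eif4g3, with values in PCN and PN only, fell by 0.28 ± 0.05.

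Of eIF2, which carries the first tRNA, 2 subunit genes are members, and both fell in PCN but are not in the PN against WT table. Eif2s1, the subunit phosphorylated under stress, had 16.2, 16.2 and 15.9 FPKM in PCN, 32.3, 31.8 and 33.2 in PN, and 30.4, 29.0 and 34.9 in WT libraries. PN and WT overlapped while PCN lay far below both, with log2 fold changes of -0.96 ± 0.08 in PCN against WT and -1.01 ± 0.05 in PCN against PN (edgeR adjusted p = 4.8e-07 and 9.3e-16). Eif2s2 fell less, by 0.37 ± 0.07 and 0.31 ± 0.05. Of the 5 genes of eIF2B, which reloads eIF2 with GTP, 4 rose and 1 fell in PN against WT, 2 rose and 2 fell in PCN against WT, and 2 fell in PCN against PN. Of all listed protein-coding genes, 36.1% rose and 37.1% fell in PN against WT, and 36.0% and 37.7% in PCN against WT. In PCN against PN 21.8% rose and 20.1% fell, and 5 genes are few to set beside such shares. Eif2b1 had 18.7, 19.6 and 18.5 FPKM in PCN, 19.2, 20.2 and 22.04 in PN, and 14.5, 12.8 and 14.6 in WT libraries. It rose by 0.44 ± 0.09 in PCN and by 0.56 ± 0.09 in PN. Eif2b4 rose by 0.36 ± 0.10 in PCN and by 0.41 ± 0.09 in PN, and Eif2b3 fell by 0.48 ± 0.11 and 0.36 ± 0.11. Eif2b5 rose in PN by 0.24 ± 0.07 and fell in PCN against PN by 0.23 ± 0.05. Eif2b2 lay on opposite sides of WT, with 9.32, 8.04 and 10.7 FPKM in PCN, 19.1, 18.6 and 17.3 in PN, and 15.8, 14.3 and 13.7 in WT libraries. It fell by 0.64 ± 0.12 in PCN against WT, rose by 0.34 ± 0.10 in PN against WT and fell by 0.97 ± 0.09 in PCN against PN (adjusted p = 0.00091, 0.013 and 1.9e-09), and the rise in PN did not pass without PN library 1 or 2.

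Among other initiation factors, Eif1ad, a relative of eIF1A, showed the widest rise that held in both knockout groups, with 21.5, 22.2 and 23.5 FPKM in PCN, 25.5, 25.4 and 24.03 in PN, and 16.5, 14.5 and 16.2 in WT libraries. The groups did not overlap against WT, and the log2 fold changes were 0.51 ± 0.09 in PCN against WT and 0.68 ± 0.08 in PN against WT (edgeR adjusted p = 0.00027 and 2.2e-05). Eif5b, the GTPase that joins the subunits, rose by 0.25 ± 0.07 in PCN and by 0.35 ± 0.07 in PN. Eif6, which keeps free large subunits apart from small ones, had 60.5, 63.1 and 69.0 FPKM in PCN, 56.8, 56.8 and 55.0 in PN, and 53.7, 49.3 and 45.3 in WT libraries. It rose by 0.38 ± 0.08 in PCN against WT and by 0.19 ± 0.05 in PCN against PN. Eif2a, a separate initiation factor and not a subunit of eIF2, fell by 0.54 ± 0.08 in PCN against WT and by 0.24 ± 0.07 in PN against WT, and Eif1, with values in PCN and PN only, fell by 0.13 ± 0.04. Leaving out 1 library ended the call of Eif1 (5 of 6 libraries, adjusted p 0.055 to 0.16), of Eif2b3 in PN (3 libraries, 0.056 to 0.091), of Eif2a in PN (PN library 1 or 2 or WT library 2, 0.071 to 0.1), of Eif5b in PCN (PCN library 1 or 2, 0.059 to 0.11), of Eif3g in PN (2 libraries, 0.065 to 0.074) and, for 1 library each, of Eif2b4 in PCN, Eif2b5 and Eif4enif1 in PN, and Eif6 in PCN against PN. With TMM scaling over the listed genes Eif2a and Eif2b3 did not pass in PN against WT (adjusted p = 0.079 and 0.064), nor Eif3k in PCN against WT (0.097).

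Of the 5 elongation factors, 4 fell in each comparison, and Eif5a2 rose in PN against WT. Eef1a1, which delivers tRNAs and was the most abundant member, had 4135, 4466 and 4047 FPKM in PCN, 5083, 4858 and 5140 in PN, and 7481, 7590 and 6905 in WT libraries. The 3 groups did not overlap, and it fell by 0.79 ± 0.06 on the log2 scale in PCN against WT, by 0.53 ± 0.06 in PN against WT and by 0.25 ± 0.04 in PCN against PN (edgeR adjusted p = 3.1e-07, 1.1e-05 and 1.9e-05). Of its exchange factor subunits, Eef1g had 333, 353 and 343 FPKM in PCN, 420, 409 and 396 in PN, and 662, 618 and 607 in WT libraries. Eef1b2 had 230, 255 and 246 in PCN, 293, 286 and 284 in PN, and 445, 410 and 396 in WT. In PCN against WT they fell by 0.87 ± 0.07 and 0.77 ± 0.08, and in PN against WT by 0.61 ± 0.07 and 0.52 ± 0.07. Eef2, which moves the ribosome along the mRNA, had 1245, 1376 and 1275 FPKM in PCN, 1537, 1479 and 1483 in PN, and 2436, 2440 and 2192 in WT libraries. Its log2 fold change was -0.86 ± 0.07 in PCN against WT, -0.64 ± 0.06 in PN against WT and -0.21 ± 0.04 in PCN against PN. Eif5a2, a paralog of the factor eIF5A that eases stalled ribosomes, had 1.27, 1.55 and 1.42 FPKM in PN against 0.505, 0.406 and 1.15 FPKM in WT libraries. WT library 3 lay apart from the other WT libraries, and the log2 fold change of 1.05 ± 0.31 (adjusted p = 0.018) became 1.64 without it, while the call was lost without WT library 1 or 2 or PN library 2 or 3 (adjusted p 0.055 to 0.077).

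Pabpc1, which binds the poly(A) tail, had 355, 394 and 335 FPKM in PCN, 382, 370 and 411 in PN, and 536, 557 and 583 in WT libraries. It fell by 0.62 ± 0.07 in PCN and by 0.51 ± 0.07 in PN (edgeR adjusted p = 1.3e-05 and 3.5e-05). Pabpc4 has values in PCN and PN only, 38.5, 39.0 and 39.5 FPKM in PCN against 52.9, 51.5 and 48.6 in PN, and fell by 0.39 ± 0.05. The 3 kinases of eIF2 that are listed each had their own order of group means, with not every step called. Eif2ak1, the heme-regulated kinase, had 9.64, 8.78 and 8.50 FPKM in PCN, 10.3, 10.4 and 10.6 in PN, and 7.81, 6.87 and 8.04 in WT libraries. It rose by 0.47 ± 0.08 in PN against WT and has no call in PCN against WT (0.24 ± 0.08 in the fit over all 9 libraries). In PCN against PN the log2 fold change of Eif2ak1 was -0.21 (edgeR adjusted p = 0.011). That call was lost without PCN library 3 (adjusted p = 0.06) and in the fit over all 9 libraries (adjusted p = 0.076). Eif2ak2, the kinase PKR activated by double-stranded RNA, had 6.57, 7.15 and 6.19 FPKM in PCN, 4.04, 4.02 and 4.18 in PN, and 5.29, 5.84 and 6.04 in WT libraries. PN lay below WT and PCN above both without overlap, with a log2 fold change of -0.48 ± 0.10 in PN against WT and of 0.70 ± 0.08 in PCN against PN (adjusted p = 0.0017 and 5.9e-08). The nearest PCN and WT libraries were 6.19 and 6.04 FPKM. Eif2ak2 has no call in PCN against WT, where the fit over all 9 libraries gave 0.21 ± 0.09. Eif2ak3, the kinase PERK of the endoplasmic reticulum, had 7.03, 6.97 and 6.77 FPKM in PCN, 5.68, 5.43 and 5.61 in PN, and 4.96, 4.99 and 5.50 in WT libraries. It rose by 0.43 ± 0.09 in PCN against WT and by 0.31 ± 0.07 in PCN against PN. PN and WT libraries overlapped, without a call (0.11 ± 0.08 in the fit over all 9 libraries). Eef2kmt, which methylates eEF2, fell by 0.31 ± 0.09 in PCN and by 0.27 ± 0.08 in PN. Its call was lost in PCN without library 1 or 3 and in PN without PN library 2 or 3 or WT library 2, and in PN with TMM scaling (adjusted p = 0.071).

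The position of a gene set apart 6 members. On chromosome 12 before 95 Mb, all 4 members fell in PCN against PN. They are Rps7, Rps29, Eif2s1 and Eif2b2, with a median log2 ratio of -1.04. Rps7, a small-subunit protein that also binds MDM2, had 185, 206 and 192 FPKM in PCN, 404, 406 and 409 in PN, and 668, 585 and 664 in WT libraries. Its log2 fold change of -1.06 ± 0.04 in PCN against PN (edgeR adjusted p = 2e-17) stood beside one of -0.64 ± 0.07 in PN against WT, and PCN against WT gave -1.71 ± 0.08. Rps29 had 147, 101 and 142 FPKM in PCN, 302.5, 310.2 and 215 in PN, and 638, 312 and 168 in WT libraries, so the WT libraries spread 3.8-fold, and the log2 fold change of -1.51 ± 0.56 in PCN against WT did not pass (adjusted p = 0.13). Its fall of 1.08 ± 0.23 in PCN against PN passed with an adjusted p of 0.034 but not without any 1 of 5 of the 6 libraries (adjusted p 0.079 to 0.13), nor with the replicate number as a block (adjusted p = 0.18), nor in the fit over all 9 libraries (adjusted p = 0.29). The other listed genes there went the same way in this comparison, with 259 that fell, 5 that rose and a median of -0.90 over 295 genes.

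On chromosome 14 the order was different. Rpl15, a protein of the large subunit, had 230, 238 and 256 FPKM in PCN, 207, 196 and 179 in PN, and 470, 389 and 344 in WT libraries. Rps24, of the small subunit, had 149, 143 and 148 in PCN, 116, 114 and 113 in PN, and 254, 231 and 152 in WT. In both genes PN was lowest. They fell by 1.04 ± 0.11 and 0.88 ± 0.16 in PN against WT (edgeR adjusted p = 7.9e-06 and 0.0017) and rose by 0.31 ± 0.05 and 0.36 ± 0.04 in PCN against PN (adjusted p = 2.9e-05 and 3.6e-08), the 2 ribosomal protein genes to do so. In the fit over all 9 libraries the change of Rps24 in PCN against PN did not pass (adjusted p = 0.19), while Rpl15 did (adjusted p = 0.034). Among other listed genes of chromosome 14, 257 fell and 17 rose in PN against WT with a median of -0.57, and 320 rose and 5 fell in PCN against PN with a median of 0.60. In PCN against WT the members' medians were -0.63 on chromosome 14, beside -0.02 for the other genes there. Without chromosomes 12 and 14, 75 members fell and 14 rose in PCN against WT, 67 fell and 15 rose in PN against WT, and 54 fell and 4 rose in PCN against PN.

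**Figure D4:**
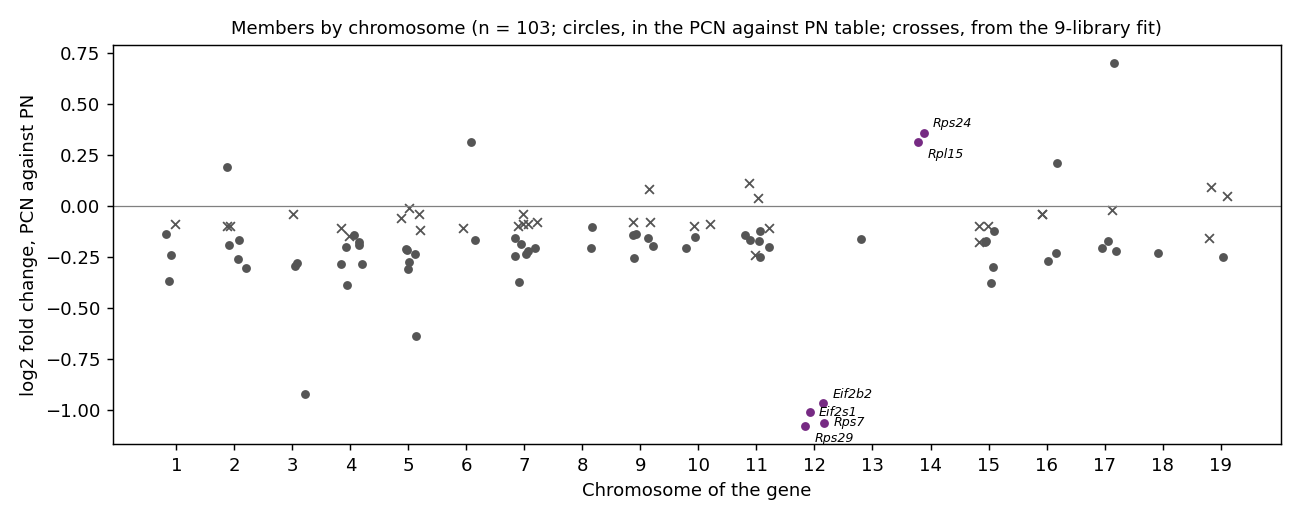
Log2 fold change in PCN against PN of 103 members by the chromosome of the gene, as circles for those in the PCN against PN table and crosses for values from the fit over all 9 libraries, with members of chromosomes 12 and 14 in purple. The 4 members of chromosome 12 lie near -1 and the 2 of chromosome 14 above 0, while most others lie between 0 and -0.4.

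Genes that build ribosomes mostly rose against WT, where most ribosomal proteins fell. Of 101 genes of ribosome biogenesis 85 are listed. Of these, 68 rose and 6 fell in PCN against WT, 70 rose and 3 fell in PN against WT (80.0% and 82.4% rose, beside 36.0% and 36.1% of all listed protein-coding genes). In PCN against PN 4 rose and 13 fell, with 15.3% lower beside 20.1% of all genes and a median log2 ratio of -0.01. Ncl, the nucleolar protein nucleolin, had 104, 104 and 97.2 FPKM in PCN, 109, 107 and 111 in PN, and 74.4, 69.9 and 64.4 in WT libraries. It rose by 0.55 ± 0.08 in PCN and by 0.66 ± 0.07 in PN (edgeR adjusted p = 4.9e-05 and 6.8e-06). Their median log2 ratio was 0.54 in each comparison with WT, beside -0.72 in PCN against WT and -0.54 in PN against WT for the ribosomal proteins. Of 57 genes of translational control 38 are listed. Of these, 16 rose and 6 fell in PCN against WT, 24 rose and 8 fell in PN against WT, and 8 rose and 8 fell in PCN against PN. The share that rose was 42.1% in PCN against WT and 63.2% in PN against WT, and 21.1% went each way in PCN against PN, the first and last near the shares of all genes. Larp1, which binds the 5' TOP motif, rose by 0.59 ± 0.08 in PCN and by 0.56 ± 0.07 in PN, and Eif4ebp1, an inhibitor of cap binding, fell by 1.19 ± 0.09 and 1.06 ± 0.09. A list of 25 symbols for aminoacyl-tRNA synthetases, which load tRNAs, also holds Aimp1, Aimp2 and Eef1e1, which are no synthetases. It holds both Mars and Mars1, symbols of the same gene. Of the 25 symbols 19 are listed, Aimp1 and Aimp2 among them. Of these 19, 6 rose and 8 fell in PCN against WT, 10 rose and 5 fell in PN against WT, and 11 fell in PCN against PN. The shares that rose and fell were 31.6% and 42.1% in PCN against WT, near those of all genes, and 52.6% and 26.3% in PN against WT, with 57.9% lower in PCN against PN.

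**Figure D5:**
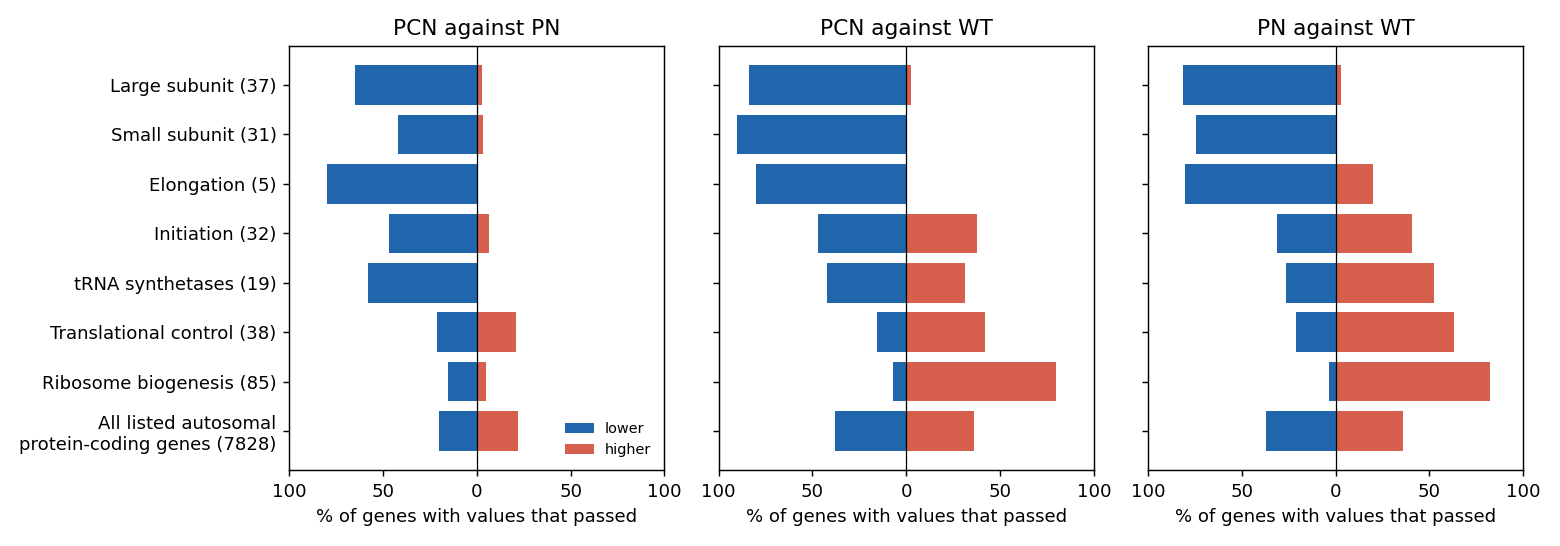
Share of the listed genes of each group that fell (blue, left) or rose (red, right) at an edgeR adjusted p under 0.05 in each comparison, with the number of listed genes in brackets. Ribosomal proteins and elongation factors lie mostly on the falling side against WT, ribosome biogenesis mostly on the rising side, and all listed genes about evenly on both.

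Reads of ribosomal protein genes can be shared with their many processed pseudogenes, and the counting method is not given in the sources used here, so single levels are uncertain. Pseudogenes were picked by symbols that begin with Rpl or Rps and hold -ps or end in rt or l. Pseudogenes with other symbols are not counted. Of the 34 so picked, 28 fell in PCN against WT (82.4%) and 20 in PN against WT (58.8%), beside 86.8% and 77.9% of the ribosomal protein genes. In PCN against PN 7 fell and 1 rose, and the 20.6% that fell is near the 20.1% of all protein-coding genes and below the 54.4% of the ribosomal protein genes. The 20 with counts in all libraries held 0.119% ± 0.0054 of the library size behind the authors' FPKM in PCN, 0.133% ± 0.0016 in PN and 0.221% ± 0.0077 in WT. Among the members, Rps27rt is a retrogene copy of Rps27, and Rps12-ps3 is a pseudogene by name that the tables list as protein-coding. Rps27rt, with no PCN values, had 143, 180 and 201 FPKM in PN against 318, 323 and 561 in WT libraries, a log2 fold change of -1.19 ± 0.23 (edgeR adjusted p = 0.0043). Rps27, with no PN values, had 418, 352 and 347 in PCN against 765, 547 and 466 in WT, a log2 fold change of -0.67 ± 0.17 (adjusted p = 0.015; 0.058 without PCN library 3, and a log2 fold change of -0.44 without WT library 1). Rps10 was listed at 1.39, 1.32 and 1.51 FPKM in PCN against 2.52, 2.44 and 2.21 FPKM in WT libraries, far below every other small-subunit gene.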

How the data were processed

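Total RNA of mouse esophageal organoids was sequenced from 9 libraries, 3 per group. CASAVA, DESeq and the build GRCm38 (mm10) are named in the submitters' processing notes. The aligner, counter and strand setting are not given in the sources. Each of the 3 deposited tables compares 2 groups and is limited to genes past an adjusted p of 0.05 in the authors' test. Per the file headers and values, the tables hold the authors' raw counts, a normalized count signal (counts over 1 size factor per library and table), FPKM made by the authors from counts and a listed gene length, and the authors' log2 fold change, p-value and adjusted p-value. The library size behind the FPKM, worked out from counts, FPKM and gene length, followed the size factors within 1.01-fold, so it is not a plain read total and total reads per library are unknown. Depth was 14695420 to 20198041 on that scale.

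The deposited counts of each table were fitted by the quasi-likelihood test of edgeR (version 4.0.16, R version 4.3.3, robust, filterByExpr) with the authors' size factors as offsets. The fit was run on simulated counts too. Changes of 0.5 on the log2 scale were recovered for 79% of changed genes in PCN against WT, 69.7% in PN against WT and 80% in PCN against PN. The simulation gave every gene the same dispersion, unlike these data, so these shares need not hold here. The adjusted p is Benjamini-Hochberg over 17300 genes for PCN against WT, 17165 for PN against WT and 14758 for PCN against PN, the numbers the authors adjusted over as worked out from their p-values. The refit uses genes selected on the same libraries and is not independent evidence. The SE of a fold change was worked back from the F statistic. Genes outside a table have no call there, and for PCN against PN 9-library values are plotted where given. DESeq2 1.42.0 and limma 3.58.1 on log2(FPKM + 1) and log2(FPKM + 0.1) were alternatives; log2(FPKM + pseudocount) understates changes of low genes.

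Members and gene lists were chosen with earlier results of these data known. The text names, per comparison and role, up to 4 higher and 4 lower members with the widest change among those that passed, with at least 5 CPM and no overlap of libraries, the 6 most abundant members, the subunits of eIF2, eIF2B, eIF3, eIF4 and eEF1, and paralog pairs. Rps6, Rps7, Rps29, Rpl5, Rps14, Rack1, Rps10, Eif2a, Eif5b and Eif6, among others, were named in comparisons outside that rule after their values were seen. So were Rps18 in the promoter windows, members passing nowhere, members that lost a call, and the genes of other lists.

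Replicate numbers are in the labels. Deviations from group means over 5877 genes correlated at 0.23, 0.13 and 0.23 between PN and WT libraries of the same number. All are over 0.1, which by the rule used here pairs them. Between PN and WT libraries of other numbers the range was -0.22 to 0.01. PCN library 3 and WT library 1, of different numbers, correlated at 0.29, so such a value does not settle a pairing. No label says what a number shares. With the replicate number as a block, all 86 members called in PN against WT were called again. Promoter windows were taken from RefSeq (GRCm38.p6), and 107 of 111 members have the same coordinates in GENCODE M21.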

Additional observations from a re-analysis of the deposited data

Results flagged for a closer look

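Eif2b2, a subunit of eIF2B, was flagged because all its PCN libraries lie below all WT libraries and all its PN libraries above them. The log2 fold change in PCN against PN was -0.97 ± 0.09 (edgeR's quasi-likelihood test, adjusted p = 1.9e-09). The flag used the same libraries and already required PCN and PN to lie apart, so this p is no independent support. Eif2b2 lies on chromosome 12 before 95 Mb, where 259 other listed genes fell and 5 rose in PCN against PN. Eif2ak2, which encodes the kinase PKR, was flagged for the opposite pattern, with all PCN libraries above and all PN libraries below all WT libraries. Its log2 fold change in PCN against PN was 0.70 ± 0.08 (adjusted p = 5.9e-08), with the same limit. Eif2ak2 has no call in PCN against WT, where the fit over all 9 libraries gave 0.21 ± 0.09.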

How the results depend on the processing

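The direction of no called member changed under any alternative run, but these runs kept nearly the same scale of the libraries. No member was refitted on the scale of the summed FPKM of the listed genes, so its direction there was not tested. The members' share of the library size, as a log2 ratio, was -0.71 in PCN against WT, -0.52 in PN against WT and -0.18 in PCN against PN; as a share of the summed FPKM of the listed genes it was -0.18, -0.07 and -0.11. In PCN against PN, 64 members were called (58 lower) with a coefficient of variation of 0.0505 fitted to those groups alone, and 29 (25 lower) in 1 fit over all 9 libraries, which covers fewer genes and takes in the wider spread of WT. Otherwise counts of called members stayed within 1.5 times. Leaving out 1 library gave 85 to 94 in PCN against WT (all libraries 94), 76 to 83 in PN against WT (86) and 51 to 66 in PCN against PN (64). DESeq2 gave 97, 87 and 66, and TMM over the listed genes, which moved the median fold change by 0.07, 0.06 and -0.03, gave 88, 80 and 66. Leaving out 1 library ended 2 to 9 calls in PCN against WT, 3 to 10 in PN against WT and 2 to 13 in PCN against PN. With the replicate number as a block, 95 members were called in PCN against WT and 56 in PCN against PN. Same-numbered libraries correlated at -0.31 to -0.11 there, so the rule pairs none of them. Rps29, Rpl4, Rpl8, Rpl19, Rpl31, Rps20, Eif1 and Eif3j1 lost their call in PCN against PN. Rps15 fell in PCN against WT by 0.62 (edgeR adjusted p = 0.037) and did not pass without any 1 of 5 libraries (adjusted p 0.06 to 0.12). Rps12-ps3 fell by 0.78 in PN against WT (adjusted p = 0.016) and by 0.52 without WT library 3 (adjusted p = 0.15). The causes were not tested. Total reads, genes outside the tables and sharing of reads with pseudogenes limit what these values show.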
